A study of Homo sapiens with 6 samples.

Results

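The 39 protein-coding genes of the 4 HOX clusters were examined in 6 clonal lines of HEK293 cells. They were chosen by name, as every gene whose symbol is HOX followed by a cluster letter and a number, and make up 39 of the 58395 genes counted. The HOXA cluster has 11 of them, HOXB 10, HOXC 9 and HOXD 9, and all 39 were found in the count tables. HEK293 is an established line derived from human embryonic kidney. GST lines 2, 8 and 9 overexpress GST-3F, glutathione S-transferase with the tag that the labels call 3F, and serve as the control. NOCT lines 4, 11 and 12 overexpress NOCT ∆(2-15)-3F, nocturnin without residues 2 to 15 and with the same tag. The labels name no other allele, drug or time point that separates the groups. Each line is 1 clone represented by 1 strand-specific library of total RNA, so a difference between lines includes whatever separates the clones. An untransfected parental line is not analysed here.

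The libraries held 19729745 to 24422406 gene counts, of which 10314 to 18676 fell on HOX genes. The GST construct had 46 to 88 counts in the GST lines and 0 to 1 in the NOCT lines, and the NOCT construct had 46 to 82 counts in the NOCT lines and 3 to 7 in the GST lines. Of 8 genes listed as markers of HEK293, 6 were at 1 TPM or more in every line (TPM is the read count scaled for gene length and depth). PAX2 and NEFM were the exceptions. The list summed to 552 to 757 TPM in the GST lines and 657 to 1234 TPM in the NOCT lines, and its part in the HOX results was not tested. Of its 7 genes with enough counts for a test, 0 differed between the groups at an adjusted p of 0.05 in edgeR (0.0579% of all genes tested). At an unadjusted p under 0.05 there were 4 (13.9% of all genes tested). Without NOCT line 12, 5 passed the adjusted threshold (5.42% of all genes tested). Summed marker levels were 0.504 to 1.21 TPM for leukocytes, 0.0216 to 1.76 TPM for endothelium, 2.14 to 8.78 TPM for fibroblasts, 0.183 to 0.486 TPM for hepatocytes and 2.39 to 4.24 TPM for muscle, with CD3E, COL1A2, TTR and MYOG at 0. NOCT line 12 stood apart within its group: without it, 970 genes differed between NOCT and GST lines at an adjusted p of 0.05, against 10 with it (edgeR quasi-likelihood test). The counts of HOX members called, and the fold changes of the members with the smallest p, are therefore also given without that line.

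HOX genes encode homeodomain transcription factors that give cells their position along the head-to-tail axis. Within each cluster the genes lie in the order in which they act along the body: low-numbered genes pattern the hindbrain and neck, middle ones the trunk, and high-numbered ones the lumbar, sacral and limb regions. Genes with the same number in different clusters are paralogs. HOX proteins bind DNA together with the TALE homeodomain proteins of the PBX and MEIS families. Polycomb complexes keep the clusters silent where they are not used, MLL and trithorax proteins keep them active, CTCF and cohesin divide them into chromatin domains, and retinoic acid switches on the low-numbered end in the embryo. Cultured cells usually keep the HOX pattern of the tissue they came from.

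The clusters are compact. In GENCODE 29 on GRCh38, the HOXA genes lie on chromosome 7 (minus strand) and the HOXB genes run from 48528526 to 48729178 on chromosome 17 (minus strand). The HOXC genes run from 53938765 to 54056030 on chromosome 12 (plus strand), and the HOXD genes from 176092891 to 176190907 on chromosome 2 (plus strand). All members of a cluster are on the same strand. Neighbours in this tight array can have very different levels, and the promoters of HOXD10, HOXD11 and HOXD12 are shown because the first 2 were among the HOX genes that varied most between lines while HOXD12, next to them, was almost unread. The promoter of HOXB1 is shown as that of the other near-silent member. Each sequence spans the 300 bases around the gene's start (250 before and 50 after it in RefSeq, GRCh38.p14), with every CG dinucleotide in capitals.
HOXD10 (chr2:176116528-176116827, plus strand): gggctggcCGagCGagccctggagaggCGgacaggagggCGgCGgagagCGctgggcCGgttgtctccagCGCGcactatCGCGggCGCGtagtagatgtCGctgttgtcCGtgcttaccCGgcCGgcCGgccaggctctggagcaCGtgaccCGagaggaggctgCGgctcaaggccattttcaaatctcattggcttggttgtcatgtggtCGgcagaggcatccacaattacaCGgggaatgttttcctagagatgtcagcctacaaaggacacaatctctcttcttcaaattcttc
HOXD11 (chr2:176107030-176107329, plus strand): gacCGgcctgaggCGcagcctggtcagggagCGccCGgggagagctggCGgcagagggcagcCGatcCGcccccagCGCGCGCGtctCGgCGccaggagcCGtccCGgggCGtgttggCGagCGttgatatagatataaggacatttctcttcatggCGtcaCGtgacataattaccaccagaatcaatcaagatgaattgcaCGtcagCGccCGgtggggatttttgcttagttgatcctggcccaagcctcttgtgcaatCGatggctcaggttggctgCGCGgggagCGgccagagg
HOXD12 (chr2:176099545-176099844, plus strand): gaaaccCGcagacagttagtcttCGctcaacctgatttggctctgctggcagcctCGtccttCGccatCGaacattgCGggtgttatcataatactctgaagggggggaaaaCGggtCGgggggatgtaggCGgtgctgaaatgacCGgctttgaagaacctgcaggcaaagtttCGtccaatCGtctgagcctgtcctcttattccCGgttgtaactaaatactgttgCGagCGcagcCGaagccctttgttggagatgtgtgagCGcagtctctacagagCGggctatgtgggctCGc
HOXB1 (chr17:48530962-48531261, minus strand): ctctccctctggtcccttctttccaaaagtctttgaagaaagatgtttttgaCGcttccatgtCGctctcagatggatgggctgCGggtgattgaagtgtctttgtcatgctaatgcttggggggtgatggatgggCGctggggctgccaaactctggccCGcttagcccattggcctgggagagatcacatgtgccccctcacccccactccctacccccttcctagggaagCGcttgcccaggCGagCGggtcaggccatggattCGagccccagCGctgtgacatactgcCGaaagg
The HOXD10 window holds 23 CG dinucleotides, that of HOXD11 27, that of HOXD12 19 and that of HOXB1 11. RefSeq promoters were matched for 20 of the 39 members, whose median was 22.5 CG dinucleotides, against 14 over all 27305 promoters of this length. HOXC4 and HOXC5 share 1 window. A TATA box, searched as TATAAA on both strands, was in 4 of the 20 (11.95% of all promoters). The site TGATNNAT, which HOX and PBX proteins bind as a pair, was in 3 of them, HOXA2, HOXB1 and HOXD11 (7.60% of all promoters). The MEIS site TGACAG was in 4 (15.9% of all promoters). These are letter matches only, and the motifs were searched on both strands with overlaps between motifs allowed.

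HEK293 cells expressed most of all 4 clusters. At 1 TPM or more in all 6 lines were 32 of the 39 members, compared with 58.2% of 19892 protein-coding genes. HOXA contributed all of its 11 genes to these 32, HOXB 9 of 10, HOXC 6 of 9 and HOXD 6 of 9. The summed level was 717 ± 154 TPM for the 39 genes (SD over the 6 lines), made up of 274 ± 60.8 TPM from HOXA, 202 ± 25.5 TPM from HOXB, 153 ± 55.0 TPM from HOXD and 87.5 ± 21.9 TPM from HOXC. The pattern leaned to the high-numbered end, since the 16 posterior genes (positions 9 to 13) summed to 431 ± 109 TPM, the 15 central genes (4 to 8) to 204 ± 39.3 TPM and the 8 anterior genes (1 to 3) to 81.7 ± 11.2 TPM.

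**Figure D1:**
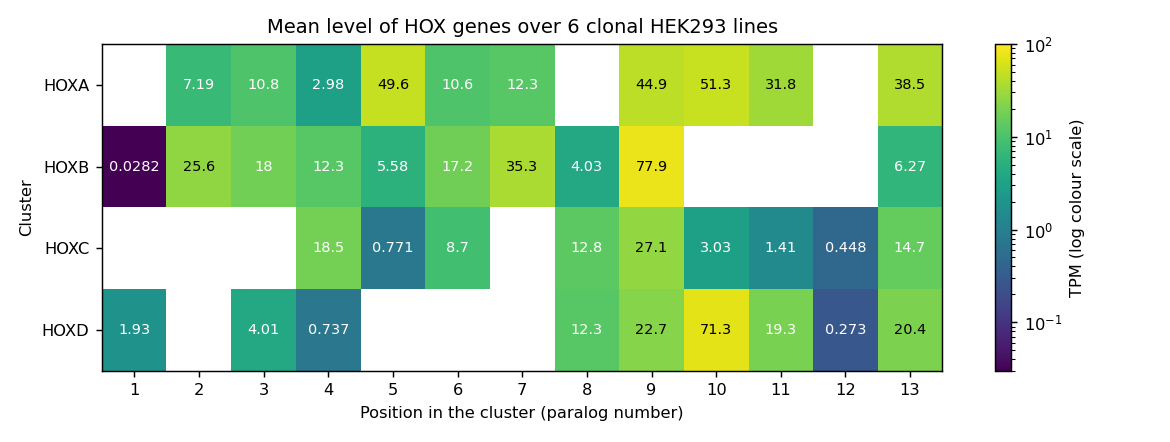
Mean deposited TPM of HOX genes over the 6 lines, with clusters in rows and positions 1 to 13 in columns, the colour on a log scale and the mean printed in each cell; white cells have no value shown. HOXA10, HOXB9, HOXC9 and HOXD10 are the highest of their clusters by mean, and HOXB1, HOXC12 and HOXD12 are the lowest of theirs.

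Summed over paralogs, position 9 was the most abundant at 173 TPM, with HOXB9 supplying 45.1% of it. Position 10 followed at 126 TPM, led by HOXD10 with 56.7%, and position 13 at 79.9 TPM, led by HOXA13 with 48.2%. Position 12 was the gap in the series at 0.721 TPM, between 52.5 TPM at position 11 and the level of position 13. At the anterior end, HOXB2 supplied 78.1% of the 32.8 TPM of position 2. HOXA5 made up 88.7% of the 56.0 TPM of position 5, so 1 paralog carried most of the level at some positions, while at positions 6, 8, 9 and 13 no paralog reached 50%.

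The single genes with the highest mean over the 6 lines were HOXB9 (77.9 TPM), HOXD10 (71.3 TPM), HOXA10 (51.3 TPM) and HOXA5 (49.6 TPM). HOXA9 had 44.9 TPM, HOXA13 38.5 TPM, HOXB7 35.3 TPM and HOXA11 31.8 TPM. HOXB9 and HOXA10 were among the 5 highest HOX genes of every line. The ranges of HOXB9 and HOXD10 over the lines overlapped, so their order is not fixed by these data.

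In what follows, the values of a gene are given in the order GST lines 2, 8 and 9, then NOCT lines 4, 11 and 12. In bulk RNA, fewer cells that express a gene and less of its RNA per cell cannot be told apart. The anterior HOXA genes pattern the hindbrain and the branchial arches. HOXA2, which sets the identity of the second branchial arch, had 7.84, 9.45 and 8.11 TPM in the GST lines and 2.92, 5.19 and 9.65 TPM in the NOCT lines. Its level in NOCT line 4 was below every other line, whereas NOCT line 12 was the highest. HOXA3, needed for thymus and parathyroid, had 9.09, 14.1 and 12.4 TPM in the GST lines and 6.16, 8.71 and 14.1 TPM in the NOCT lines. NOCT lines 4 and 11 were the lowest of the 6 for HOXA3, and NOCT line 12 lay with the highest GST line.

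Among the central HOXA genes, HOXA5, which acts in lung development, was by far the most abundant, with 39.9, 57.9 and 52.3 TPM in the GST lines and 31.7, 33.2 and 82.8 TPM in the NOCT lines. NOCT line 12 was the highest and NOCT lines 4 and 11 the lowest, with the GST lines between them. HOXA4 had 2.92, 3.32 and 3.44 TPM in the GST lines and 2.16, 2.13 and 3.902 TPM in the NOCT lines. HOXA6, its neighbour on the other side of HOXA5, had 10.04, 10.7 and 10.1 TPM in the GST lines and 7.38, 6.93 and 18.6 TPM in the NOCT lines. The same 2 NOCT lines were lowest for HOXA4 and HOXA6, and line 12 was again highest. HOXA7 had 11.9, 10.3 and 12.6 TPM in the GST lines and 15.5, 13.1 and 10.4 TPM in the NOCT lines, which is a different order: NOCT line 4 was the highest and line 12 within the GST range.

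The posterior HOXA genes were uniformly abundant. HOXA9, whose overexpression drives leukemias with MLL fusions, had 38.1, 35.99 and 45.8 TPM in the GST lines and 49.4, 45.6 and 54.7 TPM in the NOCT lines. HOXA10, which patterns the uterus and the lumbar spine, had 35.7, 49.7 and 49.3 TPM in the GST lines and 48.6, 56.7 and 67.97 TPM in the NOCT lines. For both genes the NOCT lines lay mostly above the GST lines, with an overlap. HOXA11, which with its paralogs is needed for the forearm and for the kidney to form, had 18.2, 41.8 and 33.1 TPM in the GST lines and 27.04, 31.1 and 39.6 TPM in the NOCT lines. HOXA13, a gene of the hand, foot and genital tract, had 21.4, 51.3 and 37.7 TPM in the GST lines and 24.2, 38.96 and 57.6 TPM in the NOCT lines. In TPM, GST line 2 was the lowest line for both HOXA11 and HOXA13. In CPM, NOCT line 4 (39.8 CPM) was slightly below GST line 2 (40.6 CPM) for HOXA13.

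HOXB1, which specifies a single hindbrain segment, was the only member with no count in 4 of the 6 lines: it had 2, 1 and 0 counts in the GST lines and 0, 0 and 0 counts in the NOCT lines. A count of 0 allows up to 3 counts, so these lines cannot be told from each other. HOXB2, which follows HOXB1 in the hindbrain and lies beside it, had 19.7, 17.9 and 24.4 TPM in the GST lines and 32.9, 31.1 and 27.7 TPM in the NOCT lines. Every NOCT line was above every GST line for HOXB2, and this was the only tested member whose groups did not overlap. The same held for 10.5% of all genes tested, so it does not set HOXB2 apart from other genes. HOXB3 had 16.4, 21.6 and 18.1 TPM in the GST lines and 12.8, 15.8 and 23.3 TPM in the NOCT lines, with NOCT line 12 the highest and NOCT line 4 the lowest.

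The central HOXB genes held both steady and rather variable members. HOXB4, known for expanding blood stem cells, had 10.2, 11.7 and 11.9 TPM in the GST lines and 14.4, 11.8 and 13.9 TPM in the NOCT lines. HOXB7, the most abundant of the group, had 31.2, 35.1 and 33.2 TPM in the GST lines and 42.6, 32.8 and 37.2 TPM in the NOCT lines. The highest line was 1.41-fold above the lowest for HOXB4 and 1.37-fold for HOXB7. HOXB5, which acts in the enteric nervous system, had 4.38, 7.68 and 6.49 TPM in the GST lines and 3.16, 4.105 and 7.65 TPM in the NOCT lines. HOXB6 had 12.3, 22.5 and 19.2 TPM in the GST lines and 13.7, 17.3 and 18.1 TPM in the NOCT lines. HOXB8, which marks progenitors of microglia in mice, had 3.04, 5.66 and 4.99 TPM in the GST lines and 2.37, 2.72 and 5.401 TPM in the NOCT lines. For HOXB5 and HOXB8, GST lines 8 and 9 and NOCT line 12 were high and the other 3 lines low, and for HOXB6 the low lines were GST line 2 and NOCT line 4.

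At the posterior end of HOXB, HOXB9 had 67.4, 98.9 and 82.4 TPM in the GST lines and 57.6, 67.9 and 93.5 TPM in the NOCT lines. HOXB13, which lies far from the rest of its cluster and is best known from the prostate, had 6.09, 7.64 and 6.97 TPM in the GST lines and 4.35, 5.29 and 7.25 TPM in the NOCT lines. NOCT line 4 was the lowest line for both, and the groups overlapped.

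The HOXC cluster has no members at positions 1 to 3. HOXC4 had 17.01, 23.4 and 18.8 TPM in the GST lines and 12.6, 14.5 and 24.6 TPM in the NOCT lines. HOXC6 had 6.05, 12.3 and 9.37 TPM in the GST lines and 7.32, 7.701 and 9.47 TPM in the NOCT lines. HOXC8, which helps specify motor neurons of the forelimb level, had 11.2, 15.5 and 12.9 TPM in the GST lines and 7.92, 10.1 and 19.1 TPM in the NOCT lines. NOCT line 4 was the lowest for HOXC4 and HOXC8 and line 12 the highest, while for HOXC6 GST line 8 was highest. HOXC5 was near 1 TPM, with 0.707, 0.823 and 0.303 TPM in the GST lines and 0.808, 0.884 and 1.102 TPM in the NOCT lines, from 4 to 14 counts per line, too few to order the lines.

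Among the posterior HOXC genes, HOXC9, the thoracic member in motor neurons, had 20.7, 35.2 and 29.8 TPM in the GST lines and 20.4, 23.2 and 33.2 TPM in the NOCT lines. HOXC13, which controls keratins of hair and nails, had 9.94, 19.7 and 18.3 TPM in the GST lines and 11.5, 12.3 and 16.7 TPM in the NOCT lines. Both were high in GST lines 8 and 9 and NOCT line 12. HOXC10, a lumbar member between the 2, was low and had 3.71, 1.159 and 2.402 TPM in the GST lines and 1.15, 2.57 and 7.19 TPM in the NOCT lines, a range of 6.26-fold and the widest among tested members. HOXC11 had 0.781, 1.37 and 1.38 TPM in the GST lines and 1.97, 0.937 and 2.04 TPM in the NOCT lines. HOXC12 was near silent in 5 lines, with 7, 6 and 8 counts in the GST lines and 1, 2 and 40 counts in the NOCT lines. The 40 counts of NOCT line 12 have an exact 95% Poisson interval of 28.6 to 54.5, above the upper bounds of the other 5 lines (5.57 to 15.8), and these intervals cover counting error only. NOCT line 12 was thus the highest line for HOXC10, HOXC11 and HOXC12, by little over NOCT line 4 at HOXC11.

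The anterior and central HOXD genes were low or moderate. HOXD1 had 2.08, 0.821 and 2.005 TPM in the GST lines and 1.17, 1.55 and 3.96 TPM in the NOCT lines. HOXD1 was highest in NOCT line 12 (55 counts) and lowest in GST line 8. The 12 counts of GST line 8 and 19 of NOCT line 4 are too few to order these lines. HOXD3 had 3.76, 4.19 and 4.69 TPM in the GST lines and 3.29, 3.67 and 4.48 TPM in the NOCT lines. HOXD8 had 11.2, 13.4 and 12.4 TPM in the GST lines and 10.9, 13.1 and 13.1 TPM in the NOCT lines, all within 1.23-fold. HOXD8 was thus level among the lines. HOXD4, which responds to retinoic acid in the hindbrain, had 0.387, 0.554 and 1.03 TPM in the GST lines and 0.914, 0.182 and 1.36 TPM in the NOCT lines, from 2 to 14 counts per line, too few to order them.

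The posterior HOXD genes pattern the limb and the lumbar and sacral spine. HOXD9 had 10.1, 25.9 and 21.8 TPM in the GST lines and 15.9, 27.7 and 34.9 TPM in the NOCT lines. HOXD10 had 30.1, 77.8 and 55.9 TPM in the GST lines and 53.1, 96.9 and 114 TPM in the NOCT lines. HOXD11 had 9.54, 22.1 and 17.1 TPM in the GST lines and 13.7, 23.1 and 30.2 TPM in the NOCT lines. These 3 neighbours ranked the lines alike at both ends: GST line 2 was the lowest and NOCT line 12 the highest for each, and NOCT line 11 stood above all GST lines. HOXD13, at the end of the cluster and mutated in synpolydactyly, had 14.7, 19.8 and 18.04 TPM in the GST lines and 15.2, 19.8 and 34.6 TPM in the NOCT lines, with NOCT line 12 alone above 20 TPM. HOXD12, between HOXD11 and HOXD13, had 1, 1 and 2 counts in the GST lines and 8, 3 and 2 counts in the NOCT lines, under 1 TPM in every line, with neighbours on both sides that were abundant in all of them.

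**Figure D2:**
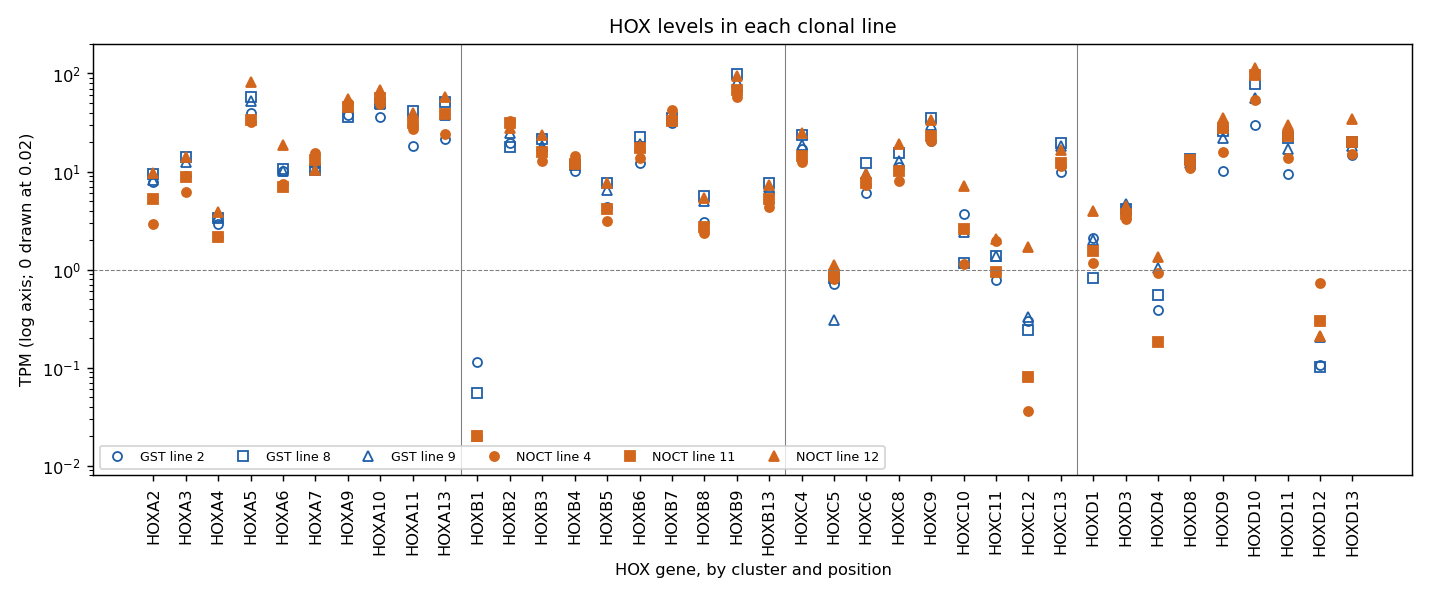
Deposited TPM of HOX genes on a log axis, in order of cluster and position, with 1 point per line (GST lines open, NOCT lines filled), 0 drawn at 0.02 and a dashed line at 1 TPM. The NOCT points all lie above the GST points for HOXB2 and for HOXD12, which has 1 to 8 counts per line and was not tested. GST line 9 and NOCT line 12 both have 2 counts of HOXD12, too few to order its lines.

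The level of some members is understated by how reads were assigned, because HTSeq drops a read that falls on exons of more than 1 gene of the same strand. Of the exon bases of HOXD4, only 19.5% belong to no other gene of that strand, and for HOXD3 the share is 37.8%, for HOXC5 40.1%, for HOXA4 69.0% and for HOXD11 78.6%. HOXD3 and HOXD4 share exons with AC009336.2, a readthrough gene at 176151085 to 176173097 on chromosome 2, which itself had 10 to 21 counts per line. When TPM was recomputed over unshared exons alone, HOXD4 moved from a mean of 0.737 to 3.75 TPM, HOXD3 from 4.01 to 10.6 TPM, HOXC5 from 0.771 to 1.91 TPM and HOXA4 from 2.98 to 4.29 TPM. HOXD10 then had the highest mean of all members (85.2 TPM) and HOXB9 the next (77.5 TPM). The number at 1 TPM or more in every line was 32 on this scale too. Since the same exons are lost in each library, comparisons of 1 gene between lines are affected less than comparisons between genes.

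The clusters also hold microRNA genes, and those of the miR-196 family are shown because their genes lie among posterior HOX genes and their targets include HOX transcripts such as HOXB8. RefSeq gives the mature 5p strands as follows, with the seed (bases 2 to 8) in capitals.
hsa-miR-196a-5p: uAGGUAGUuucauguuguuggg
hsa-miR-196b-5p: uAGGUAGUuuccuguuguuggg
The seed is identical in both. MIR196A1 of the HOXB cluster had 13, 12 and 14 counts in the GST lines and 32, 19 and 11 counts in the NOCT lines, and its log2 fold change was 0.48 (adjusted p 0.615 in edgeR). The libraries were made from total RNA and not from small RNA, so these counts say little about the mature microRNAs.

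The question of how stable this positional pattern is among clones was addressed line against line. Over the 39 members on the log2(TPM + 1) scale, Pearson's r between 2 lines was 0.943 to 0.989, with a median of 0.970 over the 15 pairs, and Spearman's rho was 0.932 to 0.983. Over all tested genes Pearson's r was 0.961 to 0.987. By Pearson's r over the members, GST lines 8 and 9 were the most alike pair and NOCT lines 4 and 12 the least; by Spearman's rho the least alike were GST line 8 and NOCT line 4. These are correlations across genes, which are not independent replicates, and they describe a pattern that all 6 lines shared: the same genes were high or low in each clone.

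Within that pattern, the level of single members varied more than is usual for a gene in these lines. The SD of log2 CPM over the 6 lines (CPM is the count relative to library size, scaled by TMM) had a median of 0.415 for the 35 members tested, against 0.254 for all genes tested. Of these 35, 30 were above the median of the genes with a mean of 1 CPM or more, which was 0.227. The members' median was 0.229 within the GST lines (0.176 for all genes tested) and 0.509 within the NOCT lines (0.224 for all genes tested). Without NOCT line 12 it was 0.386 (0.243 for all), and without NOCT line 4 it was 0.369 (0.234 for all). Spread among the members ran from 0.116 for HOXB7, 0.142 for HOXB4, 0.149 for HOXD8 and 0.192 for HOXA7 to 0.623 for HOXD9, 0.668 for HOXD10, 0.707 for HOXA2, 0.758 for HOXD1 and 1.01 for HOXC10. HOXD1 had only 12 to 55 counts per line and HOXC10 20 to 118, so counting error adds to the spread of both.

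The variation was shared between members rather than scattered. NOCT line 12 was the highest of the 6 lines for 22 of the 35 members tested, 62.9%, against 18.4% of all genes tested, and it was the lowest for 0 of them (17.9% of all genes). NOCT line 4 was the lowest for 18 members, 51.4%, against 21.1% of all genes. GST line 2 was the lowest for 9 members (15.4% of all genes) and the highest for 0 (17.5% of all genes), and GST line 8 was the highest for 9 (15.4% of all genes). As a median over the 35 members, the deviation of log2 CPM from the mean of the 6 lines was −0.12, 0.27 and 0.11 in GST lines 2, 8 and 9 and −0.48, −0.18 and 0.45 in NOCT lines 4, 11 and 12. The 2 most extreme lines were thus both NOCT lines, in opposite directions. The members are neighbours in 4 arrays and are not independent of each other.

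**Figure D3:**
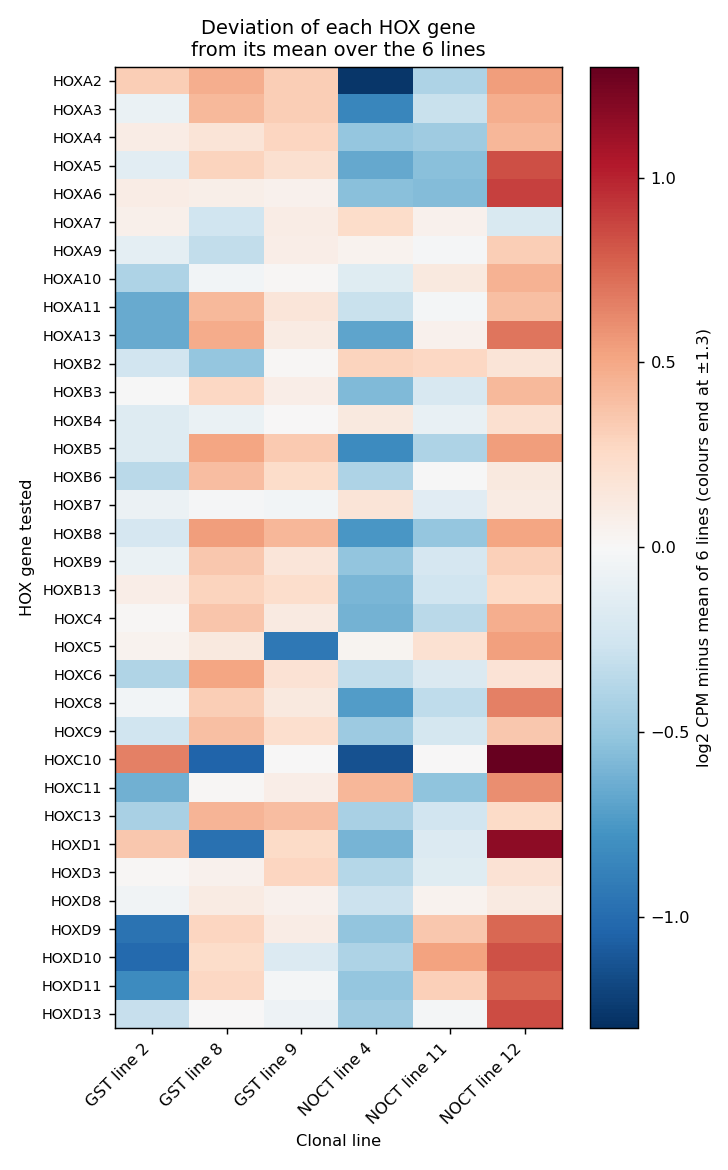
Deviation of tested HOX genes from their own means over the 6 lines, in log2 CPM, with the lines in columns and the genes in order of cluster and position. The NOCT line 12 column is mostly above 0, the NOCT line 4 column mostly below 0, and GST line 2 is lowest at HOXD9, HOXD10 and HOXD11.

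By cluster, the median deviation of NOCT line 4 was −0.51 for HOXA, −0.52 for HOXB, −0.45 for HOXC and −0.46 for HOXD. That of NOCT line 12 was 0.45, 0.26, 0.50 and 0.76. GST line 2 was at −0.08 for HOXA, −0.16 for HOXB, −0.15 for HOXC and −0.30 for HOXD. For the 4 posterior HOXD genes tested its median was −0.88, and that of NOCT line 12 was 0.79. Posterior HOXD genes therefore spanned the widest range of any stretch with 4 tested members, with GST line 2 at the bottom and not NOCT line 4.

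Chromosomal level differed between lines as well, and its values stand beside these. For each HOX member, the neighbours were the nearest 50 genes on each side with a mean of 1 CPM or more, other HOX members left out. Noncoding genes inside the clusters were not left out. The median deviation of the neighbours, as a median over the HOXD members, was −0.34 in NOCT line 4. It was −0.37 for the 975 non-member genes of chromosome 2 with a mean of 1 CPM or more. Relative to these neighbours, the HOXD members of NOCT line 4 were at −0.12. Neighbours of the HOXA, HOXB and HOXC clusters were at −0.08, 0.02 and −0.01 in that line, and the members relative to them at −0.42, −0.53 and −0.43. So the lower level of HOXA, HOXB and HOXC genes in NOCT line 4 was not shared by their neighbours, while that of HOXD was in large part. In NOCT line 12, members relative to neighbours were at 0.33, 0.19, 0.43 and 0.69 for HOXA to HOXD. HOXD members of GST line 2 were at −0.43 relative to their neighbours.

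**Figure D4:**
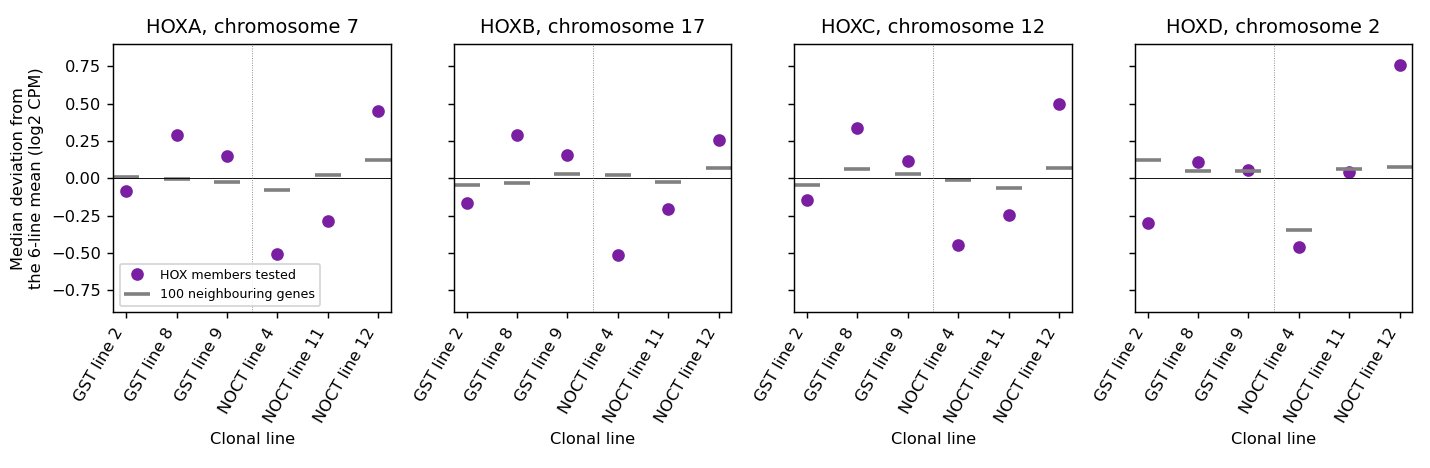
Median deviation from the mean of the 6 lines (log2 CPM) for the tested members of each cluster (points) and for neighbouring expressed genes (bars), by line. The bars are medians over members, each with its own 100 neighbours. Only at HOXD in NOCT line 4 do the neighbours (−0.34) lie far from 0 and near the members (−0.46).

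Between the groups, the comparison asks whether lines with NOCT ∆(2-15)-3F differ from GST lines in HOX levels. No member passed an adjusted p of 0.05 in edgeR's quasi-likelihood test: 0 of 35, where 0.0579% of all 17261 genes tested passed. At an unadjusted p under 0.05 there was 1 member, HOXB2, against 13.9% of all genes tested. Higher in the NOCT lines were 17 members and lower 18 (50.7% and 49.3% of all genes tested), and the members' median log2 fold change was −0.08, beside 0.00 for all genes. Without NOCT line 12 this balance was lost: 11 members were higher and 24 lower (49.3% and 50.7% of all genes tested), with a median of −0.40 beside −0.01 for all genes. HOXB2 was at 17.3 ± 3.11 CPM in the GST lines and 24.1 ± 1.05 CPM in the NOCT lines (SD, 3 lines a group). Its log2 difference was 0.48 ± 0.15 (SE), with an unadjusted p of 0.0145 and an adjusted p of 0.243 in edgeR. Groups that did not overlap, with the NOCT lines higher, were found in this 1 tested member and in 10.5% of all genes tested. DESeq2 also called 0 of 35 (2.94% of all genes tested; 1 member with an unadjusted p under 0.05). Members called were likewise 0 with limma voom (0.0927% of all genes), size factors by RLE (0.0695%), upper-quartile factors (0.0579%), no filter on low counts (2.57%, and here of all 39 members), spike-in totals (0.127%), a filter at 1 CPM (0.0665%), log2(TPM + 1) (0.0406%), log2(TPM + 0.1) (0.0637%) and the offset for neighbouring genes (0.214%). Leaving out GST line 2 (0.0281%), GST line 8 (0.0338%), NOCT line 4 (0.0738%) or NOCT line 11 (0.00567%) also left 0 members, and without GST line 9 no gene at all passed, with 1 member at an unadjusted p under 0.05 (8.31% of all genes).

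Other members with the smallest p-values were of both directions. HOXD10 had 52.1 ± 21.0 CPM in the GST lines and 80.9 ± 31.7 CPM in the NOCT lines, or 0.63 ± 0.36 on the log2 scale (SE; adjusted p 0.482 in edgeR), with groups that overlapped. On the same scale, HOXA9 was at 0.23 ± 0.14 (adjusted p 0.495) and HOXA10 at 0.29 ± 0.17 (adjusted p 0.496). HOXB13 was at −0.37 ± 0.24 (adjusted p 0.532) and HOXA2 at −0.58 ± 0.40 (adjusted p 0.560). Without NOCT line 12 these values were 0.36 for HOXD10, 0.12 for HOXA9, 0.12 for HOXA10, −0.63 for HOXB13 and −1.18 for HOXA2.

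**Figure D5:**
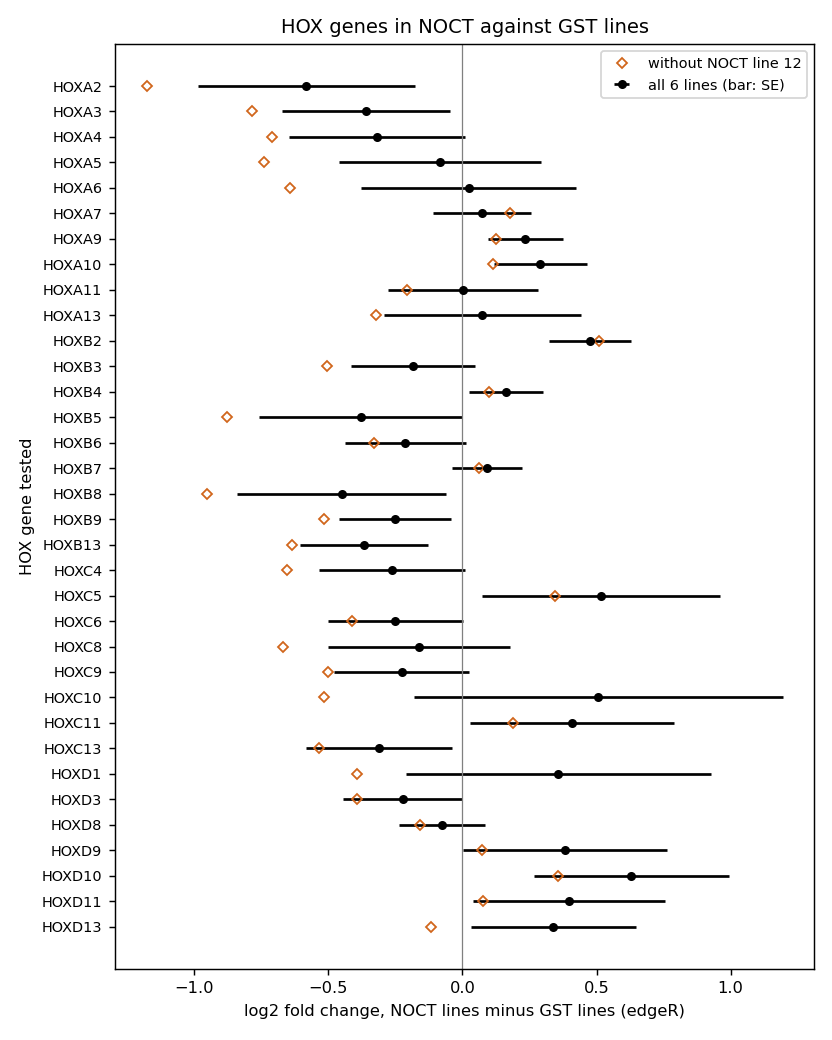
Log2 fold change of tested HOX genes, NOCT lines minus GST lines, with all 6 lines (points, bars of 1 SE derived from edgeR's F statistic) and without NOCT line 12 (diamonds, no bar). HOXB2 (0.48) has the smallest p of the members tested with all lines, and without line 12 most values from HOXA to HOXC lie below 0.

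Without NOCT line 12, 2 of the 35 members passed, 5.71%, near the 5.42% of 17882 genes called in that fit. They were HOXA5, at −0.74 on the log2 scale (adjusted p 0.0344 in edgeR), and HOXA2, at −1.18 (adjusted p 0.0499). In this fit 14 of the 35 members were lower in the NOCT lines at an unadjusted p under 0.05 (11.4% of all genes tested) and 1, HOXB2, was higher (11.9% of all genes tested). Those named here are HOXA2 to HOXA6, HOXB3, HOXB5, HOXB8, HOXB9, HOXB13, HOXC4, HOXC8 and HOXC9. No HOXD gene was among the 14. The direction of HOXB2 was kept (0.51). NOCT line 12 was the highest of the 6 lines for 22 of the 35 members, HOXA5 and HOXA2 among them, so leaving it out lowered their NOCT means.

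In the authors' deposited table, 38 members have a row and 35 of these an adjusted p. None was under 0.05 (2.09% of the 23347 rows counted), 1 had a p under 0.05 (10.5% of these rows), and 19 fold changes were positive and 19 negative. The smallest adjusted p of the authors' deposited table was 0.150 for HOXB2, with a log2 fold change of 0.41.

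HOX cofactors and the machinery that acts on the clusters were read from lists of genes. Of all genes tested, 0.0579% passed an adjusted p of 0.05 and 13.9% an unadjusted p of 0.05 in edgeR. The 9 TALE cofactors were all at 1 TPM or more in every line and summed to 103 to 121 TPM. None of the 9 passed an adjusted p of 0.05 or an unadjusted p of 0.05, and their median log2 fold change was −0.06. PBX3 had a log2 fold change of −0.29 and MEIS3 of 0.39. Of the 11 PRC2 subunits, the Polycomb complex that methylates histone H3 at lysine 27, 0 passed the adjusted threshold and 1 the unadjusted one (RBBP7, −0.21), with a median of 0.04. Of the 19 subunits of PRC1, another Polycomb complex, 0 passed and 4 had an unadjusted p under 0.05. Among them were the ubiquitin ligase RING1 (0.40, edgeR adjusted p 0.182), CBX2 (−0.44) and PCGF2 (0.35). The median over the 19 was −0.01.

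MLL and trithorax genes had a median of −0.12, with 12 of 16 lower (49.3% of all genes tested). None passed the adjusted threshold and 3 the unadjusted one (13.9% of all genes tested): DOT1L (−0.48), KMT2D (−0.33) and WDR5 (−0.32). CTCF, cohesin and their partners had a median of −0.03 with 0 of 11 past the adjusted threshold and 2 past the unadjusted one, MAZ (−0.26) and STAG1 (−0.24). Of the 17 retinoic acid and CDX regulators, 12 were tested. Their median was −0.26, 0 passed, and RXRA (−0.48), CRABP2 (1.05) and RARG (−0.43) had an unadjusted p under 0.05. RARB, a receptor gene that retinoic acid itself induces, had 9.78, 14.1 and 9.38 TPM in the GST lines and 1.87, 3.49 and 10.6 TPM in the NOCT lines, so NOCT lines 4 and 11 were low and line 12 within the GST range, and it passed without line 12. RARB was chosen for naming after its values were seen.

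The long noncoding RNA genes of the clusters also varied among lines. Of 24 noncoding genes listed, 15 were tested, with a median log2 fold change of 0.28. Of these, 10 were higher and 5 lower (50.7% and 49.3% of all genes tested), with 0 past the adjusted threshold. Past the unadjusted one were 2 (13.9% of all genes tested), HOXB-AS1 (0.96, edgeR adjusted p 0.194) and HAGLR (0.80). HOXA-AS3, antisense to HOXA5 and HOXA6, had 1.35, 10.8 and 7.16 TPM in the GST lines and 1.04, 1.89 and 11.5 TPM in the NOCT lines. HOXB-AS3 had 7.26, 11.2 and 8.99 TPM in the GST lines and 1.72, 4.101 and 9.58 TPM in the NOCT lines. HOTAIR, transcribed from the HOXC cluster, had 1.31, 5.19 and 3.201 TPM in the GST lines and 4.11, 3.48 and 6.66 TPM in the NOCT lines. HOTAIR was highest in NOCT line 12 and lowest in GST line 2. HOXA-AS3 and HOXB-AS3 were low in NOCT lines 4 and 11 and within or above the GST range in NOCT line 12, and HOXA-AS3 was also low in GST line 2; these 3 genes were named after their values were seen. Of 12 genes that flank the clusters, 7 were tested, with a median of −0.07 and 0 past either threshold.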

How the data were processed

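Total RNA of 6 clonal HEK293 lines (3 GST, 3 NOCT ∆(2-15)) was depleted of ribosomal RNA and sequenced as strand-specific libraries with ERCC spike-ins, per the labels. The submitters' processing notes name cutadapt 1.8.1, Trimmomatic 0.33, STAR 2.5.2b, HTSeq 0.6.1p1, DESeq2 1.16.1 and GRCh38. The authors deposited whole-number read counts for each gene and line. Reads that name no gene (no feature 26.5% to 30.6%, ambiguous 2.02% to 2.41%, not unique 13.3% to 14.6% of a file) stayed out of library sizes and tests. The TPM values were deposited by the authors, and for 97.4% of 12764 genes with 50 or more counts the length behind them was within 1% of the exon union in GENCODE 29; 49 repeated rows were dropped. The authors' deposited comparison gives a mean normalised count per row (a signal), log2 fold changes with standard errors, a test statistic (a score), p-values and adjusted p-values; its sign was read from the 2 construct rows (1.61 for NOCT, −1.93 for GST).

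Members and lists were chosen with earlier results of these data known. NOCT lines were compared with GST lines with edgeR 4.0.16 (filterByExpr, TMM, quasi-likelihood test, Benjamini-Hochberg adjustment over 17261 genes, threshold 0.05), checked on simulated data. The SE of a fold change was derived as its absolute log2 value divided by the square root of the F statistic of that test. Of the 39 members, 35 passed the filter on low counts, and HOXB1, HOXC12, HOXD4 and HOXD12 did not. CPM values are TMM-scaled, SDs of log2 CPM used a prior count of 2, and 58275 of 58395 genes were matched to GENCODE 29 for coordinates. By rule, values in all lines are given for members at 1 TPM or more in at least 1 line, fold changes for at most 20 members with the smallest p, and from each list up to 3 genes with the smallest p; single values of 2 genes are not reported here. The alternatives were DESeq2, limma voom, other scalings and filters, limma with log2(TPM + 1) or log2(TPM + 0.1), an offset for neighbouring genes and leaving out each line.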

Additional observations from a re-analysis of the deposited data

How the results depend on the processing

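For the 20 members with the smallest p, 317 of 319 fold changes under 16 alternatives kept their direction and side of the threshold. The exceptions came without NOCT line 12: HOXA2 passed (log2 fold change −1.18) and HOXD13 turned to −0.12 (its leave-out range was −0.12 to 0.59). This tally leaves out the other tested members. Among those, also without NOCT line 12, HOXA5 passed and HOXC10, HOXD1, HOXA13, HOXA6 and HOXA11 turned from positive to negative. HOXB2 stayed positive, at 0.34 to 0.62. The number of members past an adjusted p of 0.05 was 0 to 2 when lines were left out (2 without NOCT line 12) and 0 under the other alternatives. The number of all genes past it moved from 10 to 508 with DESeq2, 16 with limma voom, 22 with spike-in totals as library sizes, 888 with no filter on low counts, 37 with the neighbour offset and 0 to 970 when lines were left out (0, with 1488 at an unadjusted p under 0.05, without GST line 9). Of the 112 tested genes on the lists, 0 passed (19 with an unadjusted p under 0.05 in edgeR, beside 13.9% of all genes tested). This became 3 with DESeq2 (PAX2, EYA1, RING1), where 2.94% of all genes tested passed. With no filter it was 4 of 127 list genes (PAX2, RARB, EYA1, LHX1), beside 2.57% of all genes tested. The neighbour offset gave 1 (PAX2), beside 0.214% of all genes tested. When lines were left out it was 0 to 4. The 4 came without NOCT line 12 (PAX2, RARB, EYA1 and HOXB-AS3), beside 5.42% of all genes tested. The cause of these moves was not tested. Members at or above the level asked for in every line numbered 31 at 2 TPM and 34 at 0.5 TPM, and their median SD stayed at 0.369 to 0.439. Depth limits HOXB1, HOXC5, HOXC12, HOXD4 and HOXD12, each with at most 40 counts in a line. No paired analysis was possible because the groups share no line numbers.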

Other observations

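HEK293 cells are of kidney origin, so other factors that pattern the embryonic kidney were read beside the HOX genes. Of 14 listed, 12 were tested, with a median log2 fold change of −0.06. In the NOCT lines 4 lay higher and 8 lower (50.7% and 49.3% of all genes tested). In edgeR 0 passed an adjusted p of 0.05 (0.0579% of all genes tested), and 4 had an unadjusted p under 0.05 (13.9% of all genes tested). PAX2, which drives formation of the nephric duct, had 2.45, 1.796 and 2.100 TPM in the GST lines and 0.3701, 0.618 and 0.546 TPM in the NOCT lines. The log2 difference was −2.13 ± 0.30 (SE; adjusted p 0.0567 in edgeR). EYA1, a transcriptional cofactor in nephron progenitors, had 4.27, 4.32 and 3.78 TPM in the GST lines and 10.5, 9.88 and 5.93 TPM in the NOCT lines. The log2 difference was 0.99 ± 0.20 (SE; adjusted p 0.120 in edgeR). SIX2, which maintains those progenitors, had 6.300, 4.59 and 5.76 TPM in the GST lines and 3.36, 3.498 and 2.96 TPM in the NOCT lines. The log2 difference was −0.85 ± 0.23 (SE; adjusted p 0.202 in edgeR). Without NOCT line 12, 2 of the 12 passed in edgeR, PAX2 and EYA1 (5.42% of all genes tested in that fit).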
